A study of Mus musculus with 2 samples.

Results

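Dot1l and 6 genes whose proteins are reported partners of DOT1L were followed through mouse spermatogenesis in single cells. The 7 genes, of 32285 listed in the count tables, were chosen by name. They are Dot1l itself, Mllt10, Mllt6, Mllt1, Mllt3, Aff1 and Aff4. Whole testes were dissociated and profiled with a droplet 3′ kit (10x Genomics, version 3.1), with 1 library per genotype. The conditional knockout (cKO) library came from Dot1L fl/delta animals that carried Ddx4-Cre, and the control library from Dot1L fl/+ animals without Cre. Both genotypes thus hold at least 1 floxed allele. Ddx4 is a germ cell gene, so its Cre acts in germ cells. By these labels somatic cells of the cKO testis have 1 delta allele, and those of the control testis 1 wild-type allele. The labels give neither the number of animals or their age nor the part of Dot1l that is floxed. The 3′ UMIs of Dot1l may therefore come from outside the deleted part, and their level is no check of the deletion.

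DOT1L is the enzyme that methylates H3K79, a histone mark placed in the bodies of transcribed genes. Its partners belong to families that meet in transcription elongation. AF10 (Mllt10) and AF17 (Mllt6) bind DOT1L directly and raise its activity on chromatin. ENL (Mllt1) and AF9 (Mllt3) read acylated histone tails through a YEATS domain and bind either DOT1L or an AFF protein. AF4 (Aff1) and AFF4 are scaffolds of the super elongation complex, which brings the P-TEFb kinase to RNA polymerase II. In the testis, transcription is high in pachytene spermatocytes and round spermatids and ceases as the spermatid nucleus condenses.

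The upstream sequences of 3 of the genes are given because these genes had 3 kinds of stage course. They are Dot1l, Mllt10, which peaks before it, and Mllt3, which rises after meiosis. Each runs 5′ to 3′ on the strand of its gene over 250 bases that end just before the RefSeq transcript start nearest the GENCODE gene start (RefSeq, GRCm38.p6). Capitals mark AACNG on either strand, the core bound by MYB family factors, to which the pachytene regulator A-MYB belongs. The Dot1l stretch lies at chr10:80754953-80755202 on the plus strand, that of Mllt10 at chr2:18054987-18055236 on the plus strand, and that of Mllt3 at chr4:88033408-88033657 on the minus strand.
Dot1l: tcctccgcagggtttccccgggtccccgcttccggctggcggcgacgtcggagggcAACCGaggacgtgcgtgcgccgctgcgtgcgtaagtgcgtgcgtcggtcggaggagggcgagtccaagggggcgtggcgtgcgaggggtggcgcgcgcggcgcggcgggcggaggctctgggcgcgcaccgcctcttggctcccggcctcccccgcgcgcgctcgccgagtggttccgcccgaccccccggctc
Mllt10: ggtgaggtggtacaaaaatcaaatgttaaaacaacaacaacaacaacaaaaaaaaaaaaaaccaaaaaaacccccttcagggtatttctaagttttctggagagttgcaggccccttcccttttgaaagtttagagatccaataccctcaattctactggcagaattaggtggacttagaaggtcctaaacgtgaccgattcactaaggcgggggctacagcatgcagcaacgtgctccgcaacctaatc
Mllt3: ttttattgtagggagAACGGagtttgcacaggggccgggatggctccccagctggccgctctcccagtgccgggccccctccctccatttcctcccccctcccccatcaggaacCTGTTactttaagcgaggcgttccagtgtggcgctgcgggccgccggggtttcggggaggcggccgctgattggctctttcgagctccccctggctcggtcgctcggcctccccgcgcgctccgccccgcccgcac
AACNG occurred once upstream of Dot1l and 2 times upstream of Mllt3, and not in this Mllt10 stretch. It was present in 74.1% of all 32544 upstream windows of this length, so its presence is the usual state of a promoter here. The cyclic AMP response motif TGACG, searched on both strands, was in none of the 3 stretches and in 17.8% of all windows. Mllt10 has 3 listed windows, and AACNG and TGACG each occur in another window than the one shown. The Dot1l stretch was 78.4% G and C and that of Mllt3 69.2%, while that of Mllt10 was 42.4%, against a median of 52.4% over all windows. A match is a description of letters, and nothing was measured at these sites.

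Cells were sorted by marker genes into 9 germ cell stages, from spermatogonia to condensing spermatids, and 4 somatic types. The 7 genes were not used for this. After filtering, 17553 cKO and 15163 control cells were kept, and 6550 and 6556 of them fell in a germ cell stage. Stages held 217 to 1748 cKO cells and 119 to 1955 control cells each. Piwil1, a pachytene gene that the gates use, was at 766 CPM in cKO and 824 CPM in control early pachytene cells. That level follows from the gate and is no check of it. Early round spermatids had Piwil1 at 10.3 CPM in the cKO and 8.4 CPM in the control library, and late round spermatids at 27.8 and 5.70 CPM. A level is given as CPM, the UMIs (captured transcript molecules) of a gene per 1000000 UMIs of all cells of a stage and library, with an exact 95% Poisson interval. A ratio is the log2 of cKO CPM over control CPM with an exact 95% interval. These intervals cover counting error only. With 1 library per genotype no difference has a replicate check and none was tested. A gene counted as measured in a stage with 50 or more UMIs over both libraries. CPM depends on transcript length and capture, so levels were not compared between genes. The 3′ reads cannot tell fewer transcripts per cell from a change in which cells of a stage carry them, except where cells with a UMI are counted. There were 102 barcode sequences found in both libraries, 15 of them in a stage in both.

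Dot1l (ENSMUSG00000061589, GRCm38 chromosome 10, 80755206 to 80795461, plus strand) was lower in the cKO library before pachytene. Its levels were close in both libraries over early pachytene as a whole, and the courses parted within pachytene. In the control library Dot1l rose to its highest level at the end of meiotic prophase and persisted into round spermatids. In the cKO library it was even through pachytene and then dropped, with the largest difference in early round spermatids. The antisense gene Gm17151 overlaps Dot1l, and strand use in counting is not given in the sources used here.

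In spermatogonia Dot1l was at 34.3 CPM (26.4 to 43.7) in the cKO and 56.4 CPM (44.2 to 70.9) in the control library. Leptotene to zygotene cells had 52.4 CPM (46.5 to 59.0) in the cKO and 69.8 CPM (61.2 to 79.3) in the control library. In early pachytene the values were 62.8 CPM (59.0 to 66.8) in cKO and 65.7 CPM (61.8 to 69.9) in control cells. The cKO library was thus the lower one before pachytene, with intervals that do not overlap, and the intervals overlapped in early pachytene. Mid to late pachytene cells held 62.9 CPM (58.5 to 67.5) in the cKO against 119 CPM (112 to 126) in the control library. Diplotene to secondary spermatocytes had 32.2 CPM (29.7 to 34.8) in the cKO and 126 CPM (121 to 131) in the control library. Early round spermatids had 6.42 CPM (5.49 to 7.45) in the cKO library, from 172 UMIs, and 53.7 CPM (51.2 to 56.3) in the control library, from 1682 UMIs. In these 3 stages the cKO values lay below the control values with intervals far apart. Late round spermatids held 7.47 CPM (5.63 to 9.72) in the cKO against 18.0 CPM (15.1 to 21.3) in the control library. Elongating spermatids were at 1.36 CPM (0.914 to 1.96) in the cKO and 2.43 CPM (1.90 to 3.06) in the control library. Condensing spermatids gave 6 UMIs in the cKO and 25 in the control library, 1.20 and 3.90 CPM, which is under the limit for a measured gene.

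**Figure D1:**
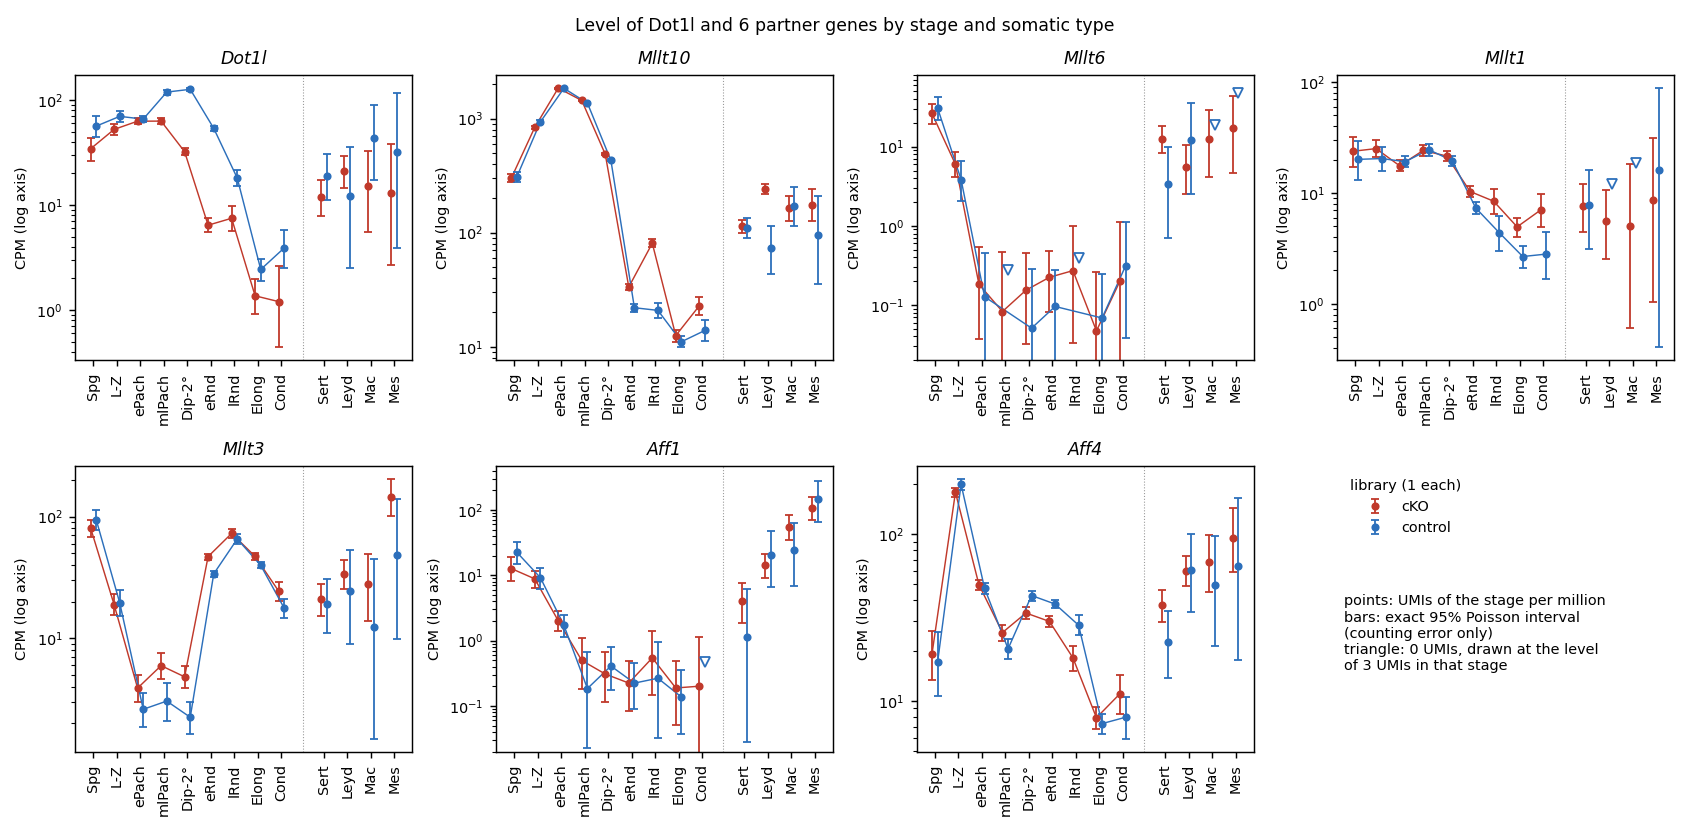
Levels of the 7 genes in CPM (log axis) in each germ cell stage, left of the dotted line, and each somatic type, right of it, in the cKO (red) and control (blue) library, with exact 95% Poisson intervals and with triangles for 0 UMIs. Stages run from spermatogonia (Spg) over leptotene to zygotene (L-Z), early and mid to late pachytene, diplotene to secondary (Dip-2°), early and late round, elongating and condensing spermatids to Sertoli, Leydig, macrophage and mesenchymal cells. The red Dot1l points lie below the blue ones in spermatogonia and leptotene to zygotene and close to them in early pachytene. They lie apart again at 62.9 against 119 CPM in mid to late pachytene and 6.42 against 53.7 CPM in early round spermatids.

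The log2 ratio of Dot1l was −0.72 (−1.22 to −0.22) in spermatogonia, −0.41 (−0.67 to −0.16) in leptotene to zygotene and −0.07 (−0.19 to 0.06) in early pachytene. It was −0.92 (−1.05 to −0.79) in mid to late pachytene, −1.97 (−2.10 to −1.85) in diplotene to secondary and −3.06 (−3.30 to −2.84) in early round spermatids, where control Dot1l was 8.37-fold above cKO Dot1l. Many early round, elongating and condensing spermatids of the libraries fell in different Leiden clusters. Of late round spermatids, 94.7% of cKO and 91.4% of control cells were in clusters with 20% or more from each library. Of early round spermatids 43.7% of cKO cells were in a cluster that held 555 cKO and 2 control cells of the stage, and 53.2% of control cells in one that held 6 and 717. Clusters with 20% or more from each library held 7.15% of cKO and 10.4% of control elongating spermatids. For condensing spermatids these shares were 4.00% and 0.362%. The leading cluster of each library alone held 70.1% of cKO and 65.3% of control elongating spermatids, and 81.5% and 98.6% of condensing ones. Ratios in these stages thus compare cells that also differ in other genes. In the early round spermatids of clusters with 20% or more of their cells from each library, 706 cKO and 628 control cells, Dot1l was at 8.13 CPM in the cKO and 64.3 CPM in the control library, a ratio of −2.98 (−3.27 to −2.71). This setting was chosen after the values were seen. Only 19 of 15187 genes measured in early round spermatids had a lower ratio. Later the ratio was −1.27 (−1.75 to −0.81) in late round and −0.83 (−1.51 to −0.19) in elongating spermatids. The late round value was −1.90 without cells of 2 or more Piwil1 UMIs, a setting chosen after the values were seen. When late spermatids were gated without transition protein and protamine genes, the late round value was −2.30 and the elongating value −0.06. With at most 5% mitochondrial UMIs per cell the leptotene to zygotene value was −0.06. Free RNA that enters droplets from lysed cells was estimated from late spermatid genes in macrophages and Leydig cells, at 2326 UMIs per cKO cell and 2251 per control cell. It could supply 41.0% of the Dot1l UMIs of cKO early round spermatids and 9.78% of those of control ones. Taking the level of condensing spermatids as free RNA gave 5.21% in cKO and 1.81% in control cells. In elongating spermatids the estimate from macrophages and Leydig cells exceeded the Dot1l UMIs observed in both libraries, so it is too high there. It also exceeded the median total of Sertoli cells, 1354 UMIs in the cKO and 1327 in the control library. Shares from this estimate may thus be too high in other cells too.

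Counting cells at equal depth also gave lower cKO shares, with intervals apart, from mid to late pachytene to early round spermatids. With each cell thinned to 3000 UMIs, 15.5% (11.4 to 20.5) of cKO and 29.4% (23.3 to 36.0) of control mid to late pachytene cells had a Dot1l UMI. In early round spermatids the shares were 2.21% in the cKO library, from 28 of 1269 cells, and 15.9% in the control library, from 214 of 1348 cells. Without thinning they were 12.1% of cKO and 62.4% of control early round spermatids, at median depths of 19104 and 20184 UMIs. The thinned shares overlapped in other stages. Spermatogonia had 9.22% (5.72 to 13.9) in cKO and 16.0% (9.90 to 23.8) in control cells. Leptotene to zygotene cells had 14.0% (11.6 to 16.8) and 19.0% (15.3 to 23.2), and late round spermatids 2.12% (0.782 to 4.56) and 5.75% (3.55 to 8.74). Macrophages, which are not germ cells, had a Dot1l UMI in 4.84% of 62 cKO and 5.56% of 18 control cells deep enough to be thinned, of 121 and 29 in all with median depths of 3095 and 3952 UMIs. The cKO macrophage share rests on 3 cells with a UMI (1.009 to 13.5%), and the cKO share in early round spermatids lay inside that interval. Free RNA would be a larger part of a macrophage of this depth than of a spermatid, so the shares do not carry the same background.

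**Figure D2:**
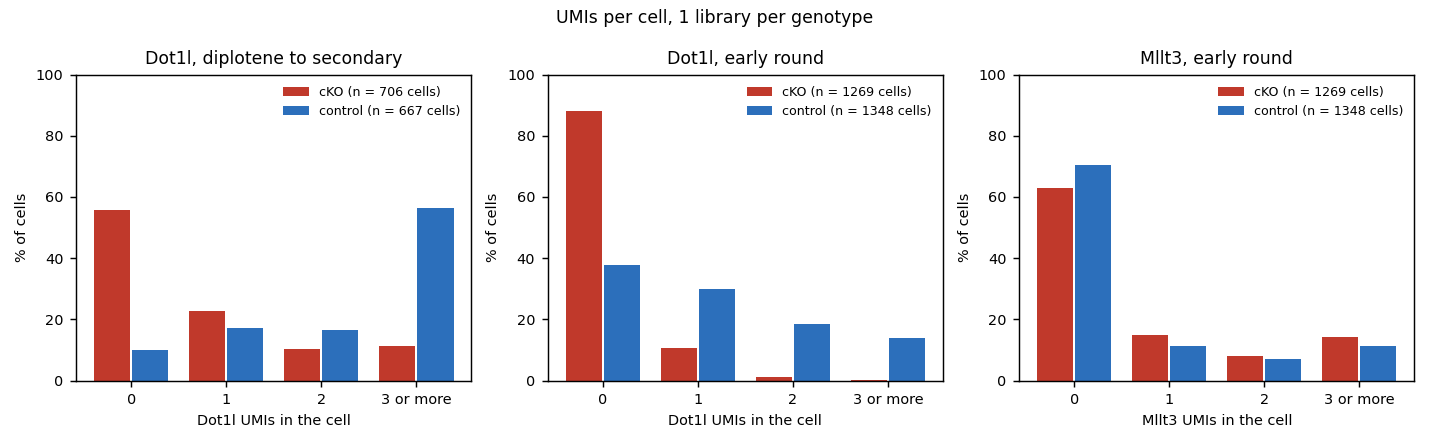
Percent of cells with 0, 1, 2 or 3 and more UMIs of Dot1l in diplotene to secondary cells and in early round spermatids, and of Mllt3 in early round spermatids, in the cKO (red) and control (blue) library, without thinning. In early round spermatids 12.1% of cKO and 62.4% of control cells had a Dot1l UMI, while 37.0% of cKO and 29.6% of control cells had an Mllt3 UMI.

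The divergence could be placed more closely by the share of Ccna1, a late pachytene and diplotene cyclin gene, among the Ccna1 and Piwil1 UMIs of a cell. At a share of 0 to 0.05 Dot1l was at 61.5 CPM in the cKO and 61.0 CPM in the control library, a ratio of 0.01 (−0.13 to 0.16). At 0.05 to 0.1, still in early pachytene, it was at 66.8 CPM in the cKO and 87.6 CPM in the control library, a ratio of −0.39 (−0.65 to −0.13). At 0.1 to 0.2 it was at 56.1 CPM in cKO and 108 CPM in control cells, a ratio of −0.94. The control level reached 139 CPM at 0.5 to 0.65, where the cKO level was 44.1 CPM. Above 0.95, the cells nearest the meiotic divisions, cKO cells were at 17.0 CPM and control cells at 109 CPM, a ratio of −2.69 (−3.06 to −2.33). The control level thus rose within pachytene, while the cKO level stayed between 56.1 and 69.0 CPM up to a share of 0.5. Along the percent of round spermatid marker genes the ratio lay between −3.71 and −2.75 in all 8 bins. Over these bins cKO Dot1l declined to 2.61 CPM and control Dot1l to 23.7 CPM in the last one.

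**Figure D3:**
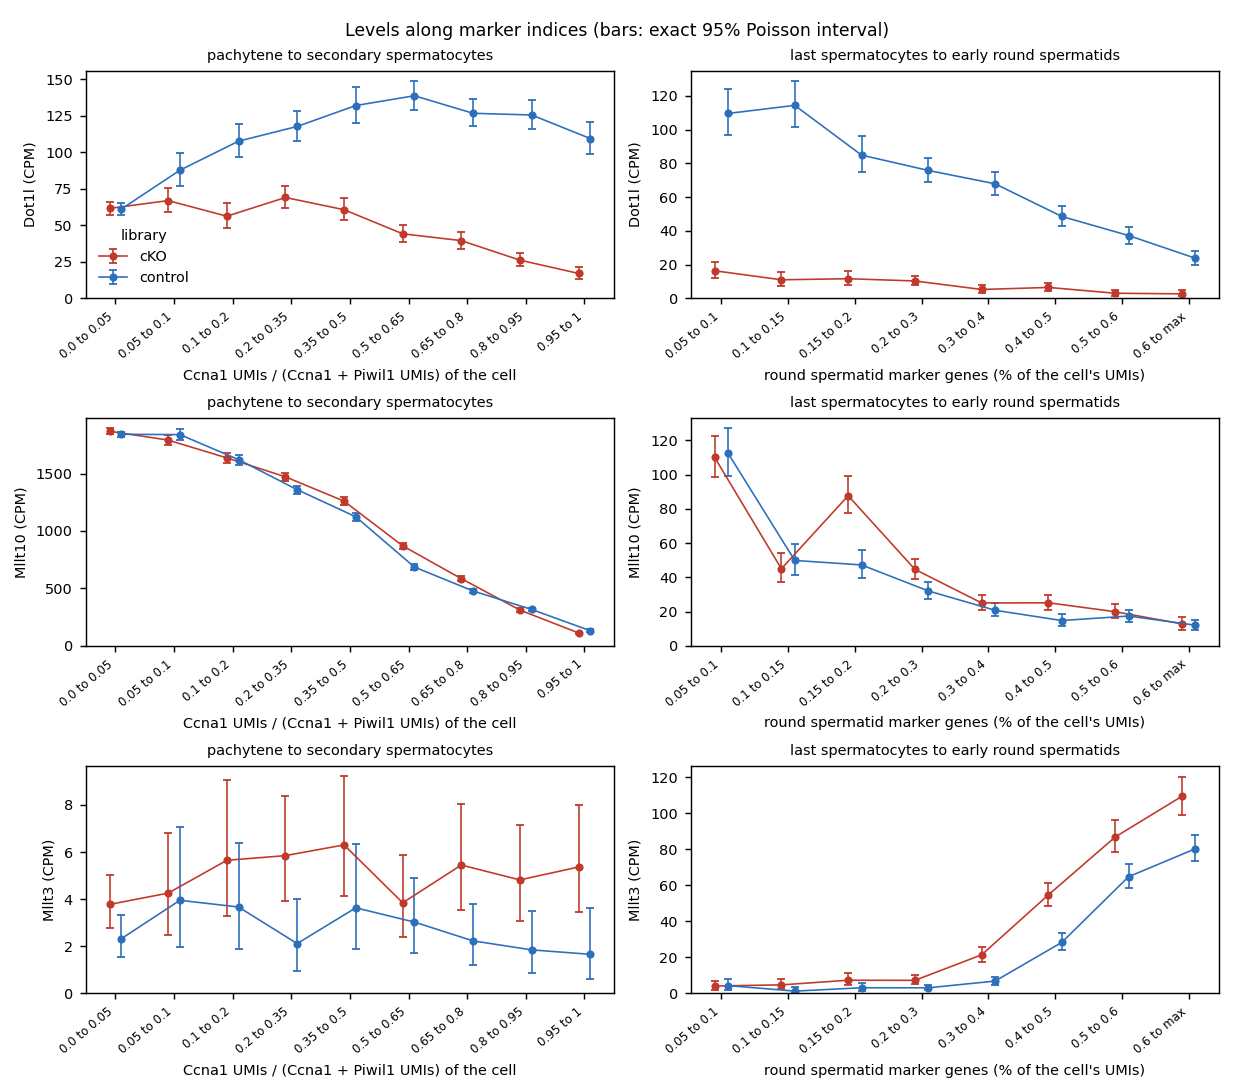
Levels in CPM of Dot1l, Mllt10 and Mllt3 in cells binned by Ccna1 share (left) and by the percent of round spermatid marker genes (right), in the cKO (red) and control (blue) library, with exact 95% Poisson intervals. Dot1l is at 61.5 CPM in cKO and 61.0 CPM in control cells of the first bin on the left and at 17.0 and 109 CPM in the last one, while Mllt10 falls along the left panels in both.

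Mllt10 (ENSMUSG00000026743, chromosome 2, 18055237 to 18212388), which encodes the DOT1L cofactor AF10, had a course of the same kind in both libraries and peaked in early pachytene. It was at 299.99 CPM in cKO and 309.6 CPM in control spermatogonia, and at 838 CPM in cKO and 935 CPM in control leptotene to zygotene cells. The early pachytene peak was 1850 CPM in the cKO and 1842 CPM in the control library. Diplotene to secondary cells were down to 486 CPM in the cKO and 430 CPM in the control library. Early round spermatids held 33.4 CPM in the cKO and 21.97 CPM in the control library. Mllt10 thus fell while control Dot1l was still rising: along the Ccna1 share it went down bin by bin after the first 2 bins, to 112 CPM in cKO and 131 CPM in control cells above 0.95. The ratio was −0.05 (−0.23 to 0.14) in spermatogonia, −0.16 (−0.23 to −0.09) in leptotene to zygotene, 0.01 (−0.02 to 0.03) in early pachytene and 0.18 (0.14 to 0.22) in diplotene to secondary cells. The genes 1810059C17Rik and Dnajc1, among others, lie on the other strand within or across Mllt10.

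In late round spermatids Mllt10 was at 80.7 CPM (74.3 to 87.4) in the cKO and 20.8 CPM (17.7 to 24.3) in the control library, a ratio of 1.95 (1.70 to 2.22). That mean was set by few cells. The share of cells with an Mllt10 UMI was 28.6% in the cKO and 29.3% in the control library, and 8.48% and 8.33% after thinning. In the cKO library 15 of 283 cells held 82.2% of the Mllt10 UMIs, with a median of 10 Piwil1 UMIs and 48917 UMIs in all, against 0 and 20295.5 in the others. Piwil1 moved with it, at 27.8 CPM in cKO and 5.70 CPM in control late round spermatids. Without the 18 cKO and 6 control cells that had 2 or more Piwil1 UMIs, a setting chosen after the values were seen, Mllt10 was at 19.0 CPM in the cKO and 19.8 CPM in the control library, a ratio of −0.06. The same setting brought the early round ratio to 0.26, where it was 0.60 (0.46 to 0.75), and in clusters shared by the libraries it was 0.44. The free RNA estimate from macrophages and Leydig cells exceeded the Mllt10 UMIs of early round spermatids in both libraries, at 162% of them in cKO and 186% in control cells. It is thus too high there too.

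Mllt6 (ENSMUSG00000038437, chromosome 11, 97663414 to 97685463), for the AF10 paralog AF17, was highest in spermatogonia among the germ cell stages. It was at 26.4 CPM (19.6 to 34.8) in cKO and 30.9 CPM (22.1 to 42.0) in control spermatogonia, and at 5.99 and 3.85 CPM in leptotene to zygotene cells. In the 7 later stages together it had few UMIs, at most 6 in any stage of the cKO and 3 in any stage of the control library. Its ratio could be measured in spermatogonia alone, at −0.23 (−0.86 to 0.41). Somatic types also held some Mllt6. Sertoli cells had 12.5 CPM (8.28 to 18.0) in the cKO and 3.36 CPM in the control library, on 28 and 3 UMIs. Mesenchymal cells had 17.2 CPM in the cKO library, on 4 UMIs, and 0 UMIs in the control library. Leydig cells had 5.60 CPM in the cKO and 12.1 CPM in the control library, on 9 and 3 UMIs.

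Mllt1 (ENSMUSG00000024212, chromosome 17, 56892611 to 56935415), for the YEATS protein ENL, was even through meiosis and low afterwards. From spermatogonia to diplotene it lay between 17.6 and 25.1 CPM in the cKO and between 19.1 and 24.5 CPM in the control library. Early round spermatids had 10.3 CPM (9.12 to 11.6) in the cKO and 7.31 CPM (6.4 to 8.32) in the control library. Elongating spermatids had 4.94 CPM in the cKO and 2.67 CPM in the control library, on 105 and 78 UMIs. The cKO library had more Mllt1 in all 4 spermatid stages, with ratios of 0.49 (0.24 to 0.75), 0.94 (0.31 to 1.60), 0.89 (0.45 to 1.33) and 1.32 (0.46 to 2.23) in developmental order. The median ratio of all measured genes was also above 0 in these stages, at 0.12, 0.07, 0.18 and 0.43. With the level of condensing spermatids subtracted as free RNA, a setting chosen after the values were seen, the elongating value was −0.027. In clusters shared by the libraries the Mllt1 ratio was 0.25 (−0.09 to 0.59) in early round and 0.68 (−0.25 to 1.61) in elongating spermatids. Late round was at 0.98 (0.29 to 1.69) in them. The condensing value rests on 35 cKO and 18 control UMIs.

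Mllt3 (ENSMUSG00000028496, chromosome 4, 87769925 to 88033364), for the YEATS protein AF9, had a course unlike that of Dot1l and was low where Dot1l peaked. It was at 80.7 CPM (68.4 to 94.5) in cKO and 94.2 CPM (78.2 to 112) in control spermatogonia. Early pachytene cells had 3.89 CPM in the cKO and 2.61 CPM in the control library. Late round spermatids were again at 72.7 CPM (66.6 to 79.1) in the cKO and 65.4 CPM (59.7 to 71.4) in the control library. Mllt3 was thus lowest in pachytene and diplotene to secondary cells in both libraries, the stages that hold the Dot1l peak of each, and it was high again in round spermatids, where Dot1l was lower. Elongating spermatids were at 47.0 CPM in the cKO and 39.7 CPM in the control library. The ratio was −0.22 (−0.58 to 0.13) in spermatogonia, 0.97 (0.35 to 1.61) in mid to late pachytene, 1.10 (0.57 to 1.65) in diplotene to secondary and 0.47 (0.35 to 0.59) in early round spermatids. The meiotic values rest on few UMIs, 72 in cKO and 33 in control mid to late pachytene and 94 and 44 in diplotene to secondary cells. Free RNA estimated from macrophages and Leydig cells could supply 28.4% and 37.5% of them in mid to late pachytene and 58.3% and 88.8% in diplotene to secondary, and the level of condensing spermatids 108% and 155% in the last. Over the other settings the mid to late pachytene ratio ran from 0.04 to 1.42 and the diplotene to secondary ratio from 0.18 to 3.004, so the 1.5-fold call of either was lost in some. With the somatic ratio subtracted, Mllt3 was at −0.45 in early round, −0.77 in late round, −0.68 in elongating and −0.45 in condensing spermatids. In clusters shared by the libraries the early round ratio was 0.80. Along the round marker percent, Mllt3 was at 21.4 CPM in cKO and 6.80 CPM in control cells at 0.3 to 0.4%, a ratio of 1.65 (1.12 to 2.21). Above 0.6% it was at 109.5 CPM in cKO and 80.3 CPM in control cells, a ratio of 0.45 (0.25 to 0.64). The marker percent itself rests on genes that may differ between the libraries, and its part in the earlier rise was not tested.

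Aff4 (ENSMUSG00000049470, chromosome 11, 53350833 to 53421830), for a scaffold of the super elongation complex, peaked in leptotene to zygotene. It was at 178 CPM (167 to 189) in cKO and 199 CPM (184 to 214) in control cells of that stage, against 19.0 and 17.0 CPM in spermatogonia. Mid to late pachytene cells held 25.6 CPM in the cKO and 20.5 CPM in the control library. A second, lower rise followed in both libraries, to 42.7 CPM in control and 33.6 CPM in cKO diplotene to secondary cells. The ratio was 0.32 (0.07 to 0.58) in mid to late pachytene, −0.35 (−0.50 to −0.20) in diplotene to secondary, −0.35 (−0.48 to −0.22) in early round and −0.65 (−0.97 to −0.33) in late round spermatids. Aff4 was the only measured partner that was lower in the cKO library from diplotene to late round spermatids, as Dot1l was, by a smaller ratio.

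Aff1 (ENSMUSG00000029313, chromosome 5, 103692374 to 103855322), for the related scaffold AF4, was low in germ cells after zygotene. It was at 12.7 CPM (8.11 to 18.8) in cKO and 22.4 CPM (14.99 to 32.2) in control spermatogonia, on 24 and 29 UMIs. Leptotene to zygotene cells had 8.80 CPM in the cKO and 9.17 CPM in the control library, and early pachytene cells 2.01 and 1.72 CPM. From mid to late pachytene on, no stage had more than 6 UMIs in the cKO or 8 in the control library. The ratio was −0.82 (−1.67 to 0.01) in spermatogonia.

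The number of members over 1.5-fold apart was read against all measured genes. In spermatogonia 2 of 7 measured members, Dot1l and Aff1, were lower in the cKO library, against 4.61% of all measured genes, and 0 were higher, against 9.01%. Both came under 1.5-fold in 1 or more settings, Aff1 at −0.49 in clusters and Dot1l at −0.31 with the somatic ratio subtracted. In leptotene to zygotene 0 of 6 measured members were higher, against 9.15% of genes, and 0 were lower, against 2.83%. In early pachytene likewise 0 of 6 were higher, against 9.08% of genes, and 0 lower, against 3.38%. Mid to late pachytene had 1 of 5 higher (Mllt3), against 12.7% of genes, and 1 lower (Dot1l), against 5.84%. Diplotene to secondary cells had the same 2 genes on the same sides, against 16.2% of genes higher and 5.07% lower. In early round spermatids 1 of 5 was higher (Mllt10, not so without the Piwil1-bearing cells), against 20% of genes, and 1 was lower (Dot1l), against 5.85%. In late round spermatids 2 of 5, Mllt10 and Mllt1, were higher, against 21.3% of genes, and 2, Dot1l and Aff4, were lower, against 10.4%. The Mllt10 call was lost, at −0.06, without the Piwil1-bearing cells. That of Aff4 was lost, at −0.47, in clusters in place of gates. Elongating spermatids had Mllt1 higher, against 22.3% of genes, and Dot1l lower, against 8.21%. In condensing spermatids 2 of 4, Mllt10 and Mllt1, were higher, against 38% of genes, and 0 were lower, against 3.42%. With the somatic ratio subtracted, Mllt10 was at −0.41 in early round and −0.29 in condensing spermatids, where it was 0.60 and 0.72 without it. The somatic Mllt10 ratio used there, 1.012, rests on 7 cKO Leydig cells that held 284 of the 497 somatic cKO UMIs, and was 0.32 as a mean over cells. The higher calls of partners in spermatids thus came where 20% or more of all genes were also higher in the cKO library. Members not measured in a stage, mainly Mllt6 and Aff1, had under 50 UMIs there.

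**Figure D4:**
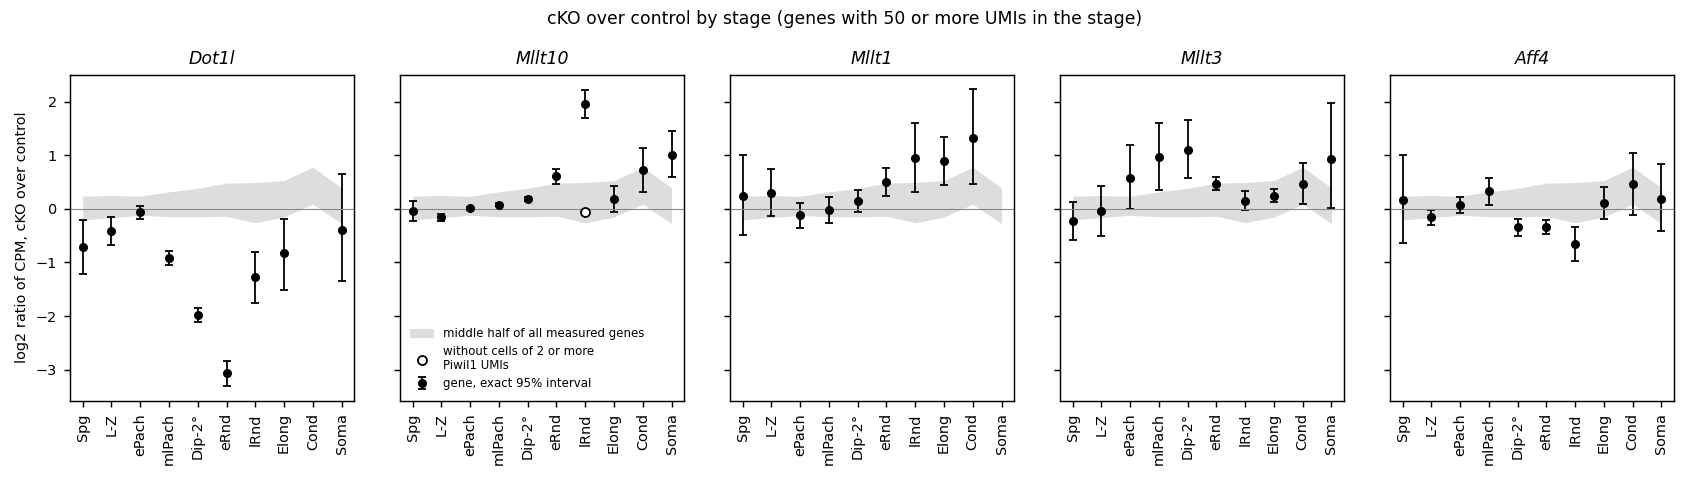
Log2 ratio of CPM, cKO over control, for the 5 genes with enough UMIs in most stages, in stage order and in pooled somatic cells (Soma), with exact 95% intervals and, in grey, the range between the quartiles of all measured genes. Dot1l falls to −3.06 in early round spermatids, and the late round value of Mllt10, 1.95, is −0.06 (open circle) without cells of 2 or more Piwil1 UMIs.

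The courses were then set beside that of Dot1l over the 9 germ stages, as Pearson's r of log2(CPM + 1). These r describe 9 points that share a library and stages cut from marker genes, and carry no test. In the cKO library r was 0.97 for Mllt10, 0.95 for Mllt1, 0.72 for Aff4, 0.56 for Aff1, 0.36 for Mllt6 and −0.57 for Mllt3. In the control library r was 0.81 for Mllt10, 0.92 for Mllt1, 0.67 for Aff4, 0.35 for Aff1, 0.19 for Mllt6 and −0.48 for Mllt3. The median r of 9165 ranked genes with control Dot1l was 0.68, and 14.4% of them were above 0.9. Of the ranked genes, 9.62% stood above Mllt1, 31.6% above Mllt10, 50.6% above Aff4 and 89.0% above Mllt3, and Mllt6 and Aff1 had too few UMIs to be ranked. Without elongating and condensing spermatids the control r was 0.71 for Mllt10, 0.85 for Mllt1, 0.10 for Aff4 and −0.74 for Mllt3. Thus Mllt1 was the partner nearest to the control course of Dot1l, and Mllt3 the one farthest from it. The cKO course of Dot1l, which lacks the late rise, was nearer to that of Mllt10 than the control course was.

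Each partner kept its own course between the libraries, with r from 0.97 for Aff4 to 0.99 for Mllt3, against 0.90 for Dot1l. The 8 genes with the highest r with control Dot1l were Zscan21, Caml, Zfp646, Brd2, Ddias, Sdhaf4, Cnot4 and Kxd1, at 0.991 to 0.995, and none is a partner studied here. Of these, 7 peaked in diplotene to secondary cells, as control Dot1l did, and Zfp646 in mid to late pachytene. In pooled round spermatids their ratios lay between −0.31 for Cnot4 and 0.91 for Kxd1, against −2.82 (−3.02 to −2.62) for Dot1l. Brd2, for a bromodomain protein that reads acetylated histones, was at −0.06 (−0.12 to −0.0014) there.

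**Figure D5:**
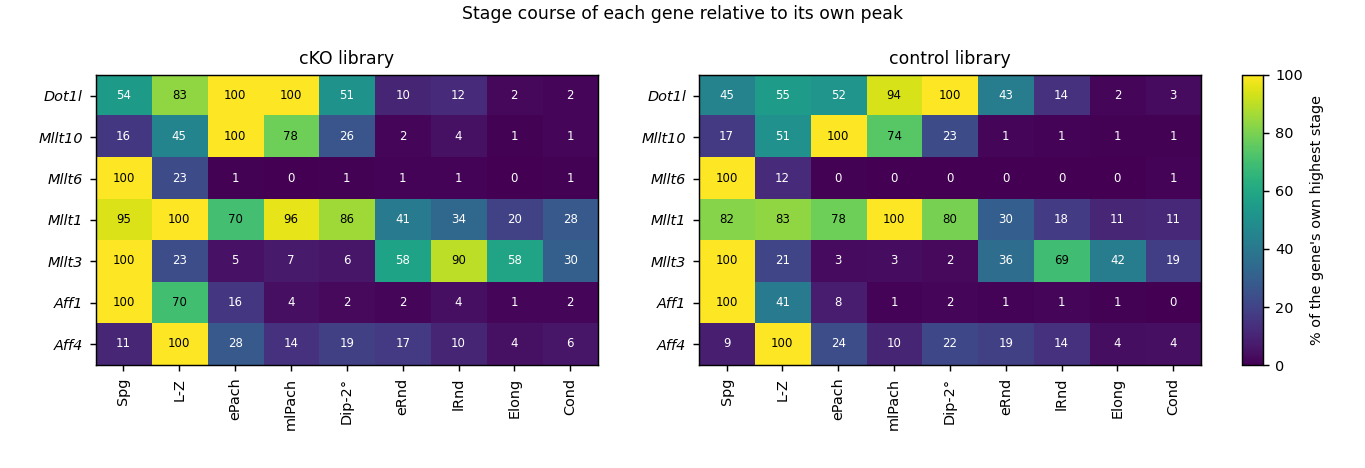
Level of each gene in the 9 germ cell stages as a percent of its own highest stage, in the cKO (left) and control (right) library. Dot1l is highest in pachytene in the cKO and in diplotene to secondary cells in the control library, Mllt10 in early pachytene, Aff4 in leptotene to zygotene, and Mllt3 in spermatogonia with a second maximum in late round spermatids.

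Somatic cells gave few UMIs, and only Mllt10, Mllt3, Aff1 and Aff4 among the partners could be measured in the pool of Leydig cells, macrophages and mesenchymal cells (442 cKO and 118 control cells). Dot1l had 43 UMIs or 19.2 CPM (13.9 to 25.9) in the cKO and 12 UMIs or 25.4 CPM (13.1 to 44.4) in the control pool, a ratio of −0.40 (−1.35 to 0.66). The free RNA estimate from macrophages and Leydig cells came to 57.2% of these UMIs in the cKO and 120% in the control pool. That from condensing spermatids came to 7.26% and 22.3%. A difference in Dot1l between the pools was not resolved at this depth, as the counting interval holds 0. All 10 other settings gave a ratio below 0, from −2.26 with at most 5% mitochondrial UMIs to −0.15. Leydig cells gave 34 of the 43 cKO UMIs and a ratio of 0.80 (−0.87 to 3.15). Macrophages were at −1.51 (−3.36 to 0.28) and mesenchymal cells at −1.31 (−4.44 to 2.27). Each of these types was under the limit for a measured gene. Aff1 stood out as the member of the somatic pool with little free RNA, at 31.3 CPM (24.4 to 39.5) in the cKO and 38.1 CPM (22.6 to 60.3) in the control pool, with 3.30% and 1.83% from free RNA. It was highest in mesenchymal cells, at 107.5 CPM in the cKO and 144 CPM in the control library, on 25 and 9 UMIs. Aff4 was at 65.3 CPM (55.1 to 76.7) in the cKO and 57.2 CPM (37.7 to 83.2) in the control pool. Mllt3 was at 44.2 CPM (36.0 to 53.9) in the cKO and 23.3 CPM (11.6 to 41.7) in the control pool, on 99 and 11 UMIs, a ratio of 0.93, and it was at −0.26 where clusters replaced the marker gates. In this pool 2 of 5 measured members, Mllt10 and Mllt3, were over 1.5-fold higher in the cKO library, against 16.5% of all measured genes, and 0 were lower, against 9.47%. The Mllt10 call rests on the 7 Leydig cells with 284 of 497 cKO UMIs and was lost, at 0.32, as a mean over cells. The free RNA estimate from macrophages and Leydig cells came to 102% of somatic Mllt10 UMIs in the cKO and 215% in the control pool. It is thus too high there. For Mllt3 it came to 34.6% and 62.9%. Mllt6 had 18 UMIs in the cKO and 3 in the control pool, and Mllt1 13 and 1.

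Mllt10 in Leydig cells was at 243 CPM (220 to 268) in the cKO and 72.7 CPM (43.1 to 115) in the control library. As in late round spermatids, few cells set the cKO mean: 7 of 222 cells held 72.6% of the Mllt10 UMIs, with a median of 21 Piwil1 UMIs and 37518 UMIs in all, against 0 and 2348 in the others. Cells with the markers of Sertoli cells were shallow, with a median of 1354 UMIs in the cKO and 1327 in the control library. Pachytene marker genes took 0.563% of the median cKO and 0.596% of the median control Sertoli cell, close to the 0.777% and 0.823% of barcodes that fell in no class. Of the Sertoli values, only those of Mllt10, Mllt3 and Aff4 were measured, and Aff4 was at 37.4 CPM in the cKO and 22.4 CPM in the control library, a ratio of 0.74 (0.02 to 1.52). The same free RNA estimate came to 121% of these UMIs in the cKO and 184% in the control library, so it is too high there. Aff4 was 1 of 3 measured members over 1.5-fold higher there, against 23.9% of genes, and 0 were lower, against 4.22%.

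Genes around DOT1L in the same pathways were counted in pooled round spermatids, from lists chosen with earlier results of these data known. Of 37 genes, 32 were measured, 5 were over 1.5-fold higher in the cKO library, against 21.8% of all measured genes, and 2 were lower, against 6.1%. Their median ratio was −0.0036 and that of all genes 0.13. Lower were Ube2a, for an enzyme of H2B ubiquitination, a modification that stimulates DOT1L, and Cdc73, for a subunit of the PAF1 elongation complex. Ube2a was at 63.3 CPM in the cKO and 133 CPM in the control library, a ratio of −1.07 (−1.15 to −1.0006), and Cdc73 at 21.1 and 33.3 CPM, a ratio of −0.65 (−0.79 to −0.52). Among those higher were Cdk9 and Eaf1 of the P-TEFb and super elongation complex list (2 of 8 measured), and Men1 and Psip1 of the MLL complex list (2 of 6). Psip1, whose product tethers the MLL complex to chromatin, was at 109.5 CPM in the cKO and 61.96 CPM in the control library, a ratio of 0.82 (0.75 to 0.90). Larp7, which holds P-TEFb inactive in the 7SK particle, was at 431 CPM in the cKO and 617 CPM in the control library, a ratio of −0.52 (−0.55 to −0.49), under the 1.5-fold rule. None of the 6 measured H2B and 6 measured PAF1 list genes was over 1.5-fold higher, and neither YEATS gene, Yeats2 or Yeats4, differed by that much.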

How the data were processed

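The 2 deposited tables give counts of UMIs for each gene in each cell barcode, and their headers name Cell Ranger 7.0.0 as the authors' counting tool. The submitters' processing notes name the build mm10 and Seurat 4.1.0. Whether intronic reads were counted is not given in the sources used here. The libraries held 156518838 UMIs over 20601 barcodes (cKO) and 155487418 over 17408 (control), with medians of 2188 and 2383.5 UMIs. Cells were kept if mitochondrial genes took no more than 10% of their UMIs and they had at least 300 genes and 500 UMIs. An automatic doublet limit marked 0 cells, so the 5% highest doublet scores were removed in each library, 898 cKO and 734 control cells, which caught 28.2% and 32.9% of simulated doublets. Most doublets thus stayed in.

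Cells were put in stages by the share of fixed marker genes in their UMIs. Spermatogonia, leptotene to zygotene, pachytene and round spermatid cells passed 0.12%, 0.25%, 0.6% and 0.15% of their own list. Early pachytene cells had a Ccna1 share under 0.1 and diplotene to secondary cells one of 0.5 or more. Round spermatids were late from 1% of Tnp1, Tnp2, Prm1 and Prm2, and cells of 10% or more were elongating, or condensing where Tnp1 was under 0.1 of Prm2. Germ stages needed 3000 or 5000 UMIs and somatic types 1000. These limits were set after the marker distributions were seen, and 53.3% of kept cKO and 52.9% of kept control cells fell in no class. The members, lists and rules were chosen with earlier results of these data known. Named were the 7 members, the 8 genes nearest to Dot1l, and of each pathway list up to 6 genes with the largest ratio in round spermatids and 100 or more UMIs there. The text gives part of the last, and 1 gene of these lists is not reported here. Cdk9 (51 UMIs) was named outside this rule to complete a count.

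UMIs were summed per stage and library and given as CPM of the stage total, with Poisson intervals, conditional binomial intervals for ratios and Clopper-Pearson intervals for shares, at the 95% level. The ratio code was tested on simulated counts. Work was done in Python 3.11.15 with scipy 1.17.1 and scanpy 1.11.5. Gene positions are from GENCODE vM21 (GRCm38). Gene models, sequences and other settings tried are described where used. No test between genotypes was possible with 1 library each.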

Additional observations from a re-analysis of the deposited data

Results flagged for a closer look

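Mllt10 and Aff4 differed between the libraries in opposite directions at different stages, with counting intervals clear of 0 on both sides. The difference between the stages was not tested. Mllt10 had a log2 ratio, cKO over control, of 1.95 (1.70 to 2.22) in late round spermatids and of −0.16 (−0.23 to −0.09) in leptotene to zygotene cells. The late round value was −0.06 without cells of 2 or more Piwil1 UMIs, so its sign rests on 18 cKO and 6 control cells. Aff4 had a ratio of 0.32 (0.07 to 0.58) in mid to late pachytene and of −0.65 (−0.97 to −0.33) in late round spermatids. The smaller values were not unusual for their stage. In leptotene to zygotene 25.6% of measured genes had a lower ratio than Mllt10, and in mid to late pachytene 75.6% had a lower ratio than Aff4. The smaller values also came nearer to 0 in some settings. Mllt10 in leptotene to zygotene was at −0.048 with at most 5% mitochondrial UMIs. Aff4 in mid to late pachytene was at 0.049 as a mean over cells.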

How the results depend on the processing

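There were 11 other settings planned and 3 added after the data were seen, which gave 666 values. Of these 576 lay within the counting interval of the reported ratio. The sign differed in 50 values, 39 of them of reported ratios under 0.2 in size, and 5 were of ratios past 1.5-fold with intervals clear of 0. The cause of these shifts was not tested. For Dot1l the ratio stayed below 0 in each measured germ stage and setting except early pachytene. The somatic Dot1l ratio ran from −2.26 to −0.15 over other settings. Subtracting the somatic ratio, which rests on 43 cKO and 12 control UMIs, gave −0.31 in spermatogonia, −0.0098 in leptotene to zygotene, 0.34 in early pachytene, −0.51 in mid to late pachytene, −1.57 in diplotene to secondary and −2.66 in early round. Early round was −3.68 with free RNA subtracted, and leptotene to zygotene −0.058 with at most 5% mitochondrial UMIs. Diplotene to secondary was −2.21 as a mean over cells, and in clusters in place of gates it was −2.27, with −0.77 in mid to late pachytene. Late round was −2.30 and elongating −0.0605 when late spermatids were gated without transition proteins and protamines, and late round was −1.90 without Piwil1-bearing cells.

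Of ratios past 1.5-fold, the sign turned for Mllt10 with the somatic ratio subtracted, at −0.41 in early round and −0.29 in condensing spermatids, and without Piwil1-bearing cells at −0.0615 in late round. It turned for Mllt1 in elongating spermatids at −0.0266 with the level of condensing spermatids subtracted, and for somatic Mllt3 at −0.26 in clusters. The somatic ratio accounts for 16 of the 50 sign changes, among them Mllt3 at −0.35 in early pachytene and −0.45, −0.77, −0.68 and −0.45 from early round to condensing spermatids. In clusters that both libraries share, 4 values moved, Mllt10 at 0.44 and Mllt3 at 0.80 in early round and at −0.46 and −0.018 in elongating spermatids. Median-of-ratios scaling moved 6 values and turned no called sign. No paired analysis was possible because each genotype has 1 library, and for the same reason no replicate could be left out. Counts under 50 UMIs left Mllt6 without a ratio after spermatogonia and Aff1 after early pachytene, and few UMIs limit the somatic values.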

Other observations

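Along the percent of round spermatid marker genes, Aff4 was lower in the cKO library in all 8 bins, with ratios from −0.59 to −0.25, of which −0.25 (−0.51 to 0.01) and −0.29 (−0.64 to 0.06) had intervals that hold 0. In the first bin, of 0.05 to 0.1%, it was at 42.5 CPM in cKO and 60.1 CPM in control cells, and in the last, above 0.6%, at 19.6 CPM in cKO and 29.5 CPM in control cells. Mllt3 was higher in the cKO library in 7 of the 8 bins and at −0.08 (−1.41 to 1.29) in the first. Mllt10 was at 87.6 CPM in cKO and 47.2 CPM in control cells at 0.15 to 0.2%, between neighbouring cKO values of 45.0 and 44.6 CPM. These bins share their libraries and were not tested.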
